A study of Mus musculus with 7 samples.

Results

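The oxidative phosphorylation genes described here are the nuclear genes of respiratory complexes I, II, III and V that carry a probe on the array. They were chosen by gene name, with earlier results of these data known. Taken was every spot that is not a control and whose gene name begins with Nduf, Uqcr or Atp5, or is Sdha, Sdhb, Sdhc or Sdhd. The rule gave 92 of 43379 such spots and 64 of the 17126 genes tested, with 37 genes of complex I, 4 of complex II, 7 of complex III and 16 of complex V. Of the 64 genes, 62 code for subunits; the other proteins are Ndufaf1, an assembly factor of complex I, and Dmac2l, which the array names Atp5s. Ndufa4 stands under complex I by its name, although its product is now placed in complex IV. All 64 genes had a probe that passed the filter on dim probes, and all were well above background in all 14 channels. The 13 subunits coded by mitochondrial DNA were not analysed here.

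RNA came from the skin of the back of HR-1 mice, which are hairless. The mice were male, were 5 weeks old and ate the purified AIN-93G diet either with glucosylceramide (GC), a sphingolipid with a sugar head group, or without it (control-fed). Skin was taken after 12 days of diet, before any treatment, or after 14 days of diet, when the right side of the back had received 10% sodium dodecyl sulfate (SDS), a detergent that irritates skin, for 5 minutes a day on 2 days. Each of 7 two-colour arrays held GC-fed against control-fed skin of one time, 3 arrays before SDS and 4 after SDS, from 500 ng of total RNA per sample. The control groups share strain, sex, age and base diet with the GC-fed groups, and the before-SDS groups also differ from the after-SDS groups by 2 days of feeding. The labels call the arrays biological replicates without saying whether a sample was a single mouse or a pool, so p-values measure the spread between these samples.

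The respiratory chain moves electrons from food to oxygen in the inner mitochondrial membrane. Complex I takes them from NADH and complex II, which is also the succinate dehydrogenase of the citric acid cycle, takes them from succinate; complex III passes them from ubiquinol to cytochrome c. Complexes I and III pump protons, and complex V, the ATP synthase, lets the protons back through a turning ring to make ATP. Oxidative muscle is rich in these proteins, while skin also draws much of its ATP from glycolysis.

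All arrays before SDS lay on one slide and all arrays after SDS on another, with one scan each, so SDS, the added days of diet and the slide cannot be told apart. The GC-fed sample carried Cy3 on array 1 before SDS and on arrays 1 and 2 after SDS, and Cy5 on the others. Between 48.5% and 54.5% of spots in green and between 58.2% and 62.8% in red were well above background. After SDS, the diet ratios of array 4 ran against those of arrays 1, 2 and 3 over all probes (r = -0.5, -0.62 and -0.3), and before SDS those of array 1 ran against those of arrays 2 and 3 (r = -0.4 and -0.18). The dyes stated in the labels were kept; with the sign of array 4 turned, still 0 members passed for diet by limma. Keratinocyte markers passed the filter for all 10 basal and all 14 suprabasal genes listed. So did all 37 skeletal muscle markers and 24 of 25 fat-cell markers, while Ucp1, which defines brown fat, had no probe past the filter.

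Diet did not move the respiratory genes past the test at either time. On arrays 1 to 3 before SDS, the median log2 ratio (GC-fed over control-fed) over the 64 genes was -0.06, 0.05 and -0.10, and on arrays 1 to 4 after SDS it was -0.14, -0.001, -0.01 and -0.06. With limma and Benjamini-Hochberg adjustment over 17126 genes, 0 of 64 passed an adjusted p of 0.05 before SDS and 0 of 64 after SDS; 0% of all genes passed in either comparison. At an unadjusted p under 0.05 there were 0 members before SDS, against 0.397% of all genes, and 4 members after SDS, against 4.46% of all genes. The median estimate over the members was -0.03 before SDS and -0.03 after SDS, beside -0.002 and -0.0007 over all genes. With median centring in place of loess the median after SDS was -0.114, beside -0.0123 over all genes. Estimates ran from -0.21 to 0.15 before SDS and from -0.35 to 0.13 after SDS. Before SDS 18 of the 64 estimates (28.1%) were above 0, against 48.7% of all genes. After SDS 20 were (31.25%), against 49.7% of all genes.

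The test of whether the diet effect differed between the times also called 0 of 64 members and 0% of all genes. At an unadjusted p under 0.05 it had 0 members, against 1.21% of all genes, and its median over the members was 0.009. GC-fed skin was higher for 17, 39 and 26 of the 64 genes on arrays 1 to 3 before SDS, and for 16, 32, 30 and 24 on arrays 1 to 4 after SDS. Of the 448 ratios, 13 lay beyond 0.5 in size, and they came from 10 genes. The share of such ratios over all genes is not given here. Ratios that were below 0 on all 4 arrays after SDS were found for 7 members, where 4.62% of all genes did the same; ratios below 0 on all 3 arrays before SDS were found for 4 members, where 9.61% of all genes did. Above 0 on every array were 1 member before SDS (Ndufa13), where 9.28% of all genes were, and 1 after SDS (Atp5d), where 3.36% were.

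**Figure D1:**
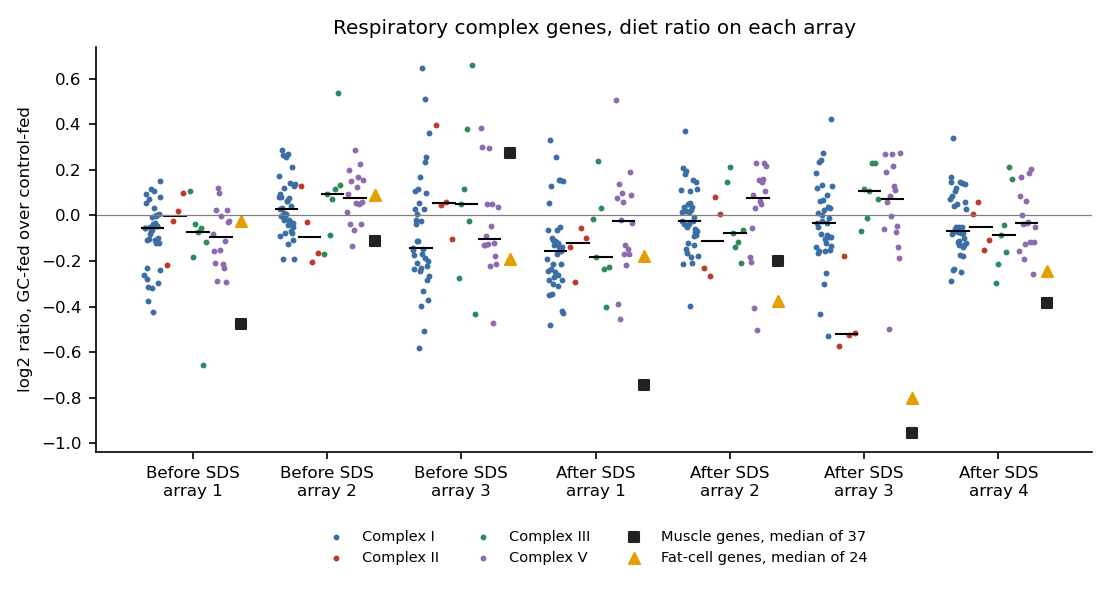
Diet ratio (log2, GC-fed over control-fed) of each of the 64 genes on the 7 arrays, coloured by complex, with a black line at the median of each complex; squares and triangles give the median of 37 muscle and 24 fat-cell genes on the same array. The complexes stay near 0 on most arrays, while the muscle median falls to -0.96 and the complex II median to -0.52 on array 3 after SDS.

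In complex I, the entry point for NADH, the median estimate was -0.06 both before and after SDS. Above 0 were 8 and 9 of 37 genes (21.6% and 24.3%), against 48.7% and 49.7% of all genes. The lowest p after SDS belonged to Ndufa13, also known as GRIM-19, an accessory subunit. Its log2 ratios were 0.05, 0.03 and 0.11 on arrays 1 to 3 before SDS and -0.35, -0.21, -0.05 and -0.08 on arrays 1 to 4 after SDS. All 3 ratios before SDS were above 0 and all 4 after SDS were below it. The estimate after SDS was -0.17 (SE 0.06) and its change between the times -0.21 (SE 0.10), with adjusted p of 0.835 and 0.9998 in limma. Ndufa8, an accessory subunit on the intermembrane side, had ratios of -0.10, -0.02 and -0.11 before SDS and -0.34, -0.15, -0.08 and -0.07 after SDS. Ndufs5, another subunit of that side, had -0.10, -0.11 and -0.22 before SDS and -0.21, -0.07, -0.15 and -0.10 after SDS. Ndufa8 and Ndufs5 were the 2 members below 0 on all 7 arrays. The share of all genes below 0 on all 7 arrays is not given here, so this count has no background beside it. Neither gene passed the test, with estimates after SDS of -0.16 (SE 0.06) and -0.13 (SE 0.06).

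Among the core subunits that carry the iron-sulfur clusters, Ndufs1 gave ratios of -0.003, 0.04 and 0.23 before SDS and 0.16, -0.006, 0.04 and -0.05 after SDS. Ndufs7, of the ubiquinone-binding module, gave -0.12, -0.05 and -0.37 before SDS and -0.28, -0.09, -0.09 and 0.06 after SDS. Neither gene kept 1 sign on all arrays. Ndufs4, an accessory subunit of the NADH-binding end, gave -0.30, 0.21 and 0.26 before SDS and -0.15, -0.06, -0.01 and -0.08 after SDS. Ndufv1, which binds NADH and the flavin cofactor, gave 0.15, -0.19 and -0.26 before SDS and 0.15, 0.12, -0.13 and -0.12 after SDS. For both genes the sign before SDS was not the same on every array. At the high end after SDS stood Ndufa4, with ratios of 0.33, 0.18, 0.24 and -0.24 and an estimate of 0.13 (SE 0.13), and Ndufa1, a small membrane subunit, with ratios of -0.19, 0.11, 0.19 and 0.07 and an estimate of 0.05 (SE 0.08). The assembly factor Ndufaf1 had ratios of 0.12, -0.001 and 0.05 before SDS and -0.21, -0.12, 0.001 and -0.05 after SDS.

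Complex II was the only one of the 4 complexes with all of its genes below 0 after SDS, each without passing the test. Sdha, the flavoprotein that oxidises succinate, had log2 ratios of -0.14, -0.23, -0.57 and 0.008 on arrays 1 to 4. Sdhb, the iron-sulfur subunit, had -0.29, -0.27, -0.18 and 0.06. Of the membrane anchors, Sdhc had -0.05, 0.08, -0.53 and -0.15, and Sdhd had -0.10, 0.005, -0.51 and -0.11. Array 3 gave the lowest ratio of Sdha, Sdhc and Sdhd, and for Sdhb arrays 1 and 2 were lower. Estimates were -0.23 (SE 0.12) for Sdha, -0.17 (SE 0.07) for Sdhb, -0.16 (SE 0.09) for Sdhc and -0.18 (SE 0.08) for Sdhd, all with an adjusted p of 0.835 in limma, and Sdhb alone had an unadjusted p under 0.05 (0.0402). Before SDS the same genes lay between -0.03 and 0.08. The tests of the change between times gave -0.31 (SE 0.19) for Sdha and -0.14 (SE 0.10) for Sdhb, with adjusted p of 0.9998.

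Array 3 after SDS was also where the muscle and fat marker genes were lowest, with median ratios of -0.96 over 37 muscle genes and -0.80 over 24 fat-cell genes. The muscle medians on arrays 1, 2 and 4 after SDS were -0.74, -0.20 and -0.38, and the complex II medians there were -0.12, -0.11 and -0.05. Without array 3 the estimate of Sdhd was -0.09 and that of Sdhb -0.14. With the muscle and fat ratios of each array as covariates, the estimate of Sdhd was 0.11 and that of Sdhb -0.06. That fit leaves fewer than the 4 residual degrees of freedom of the main fit. The muscle and fat medians were below 0 on every array after SDS, so it cannot separate diet from tissue content. In bulk skin, fewer cells of a type and less RNA per cell cannot be told apart.

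Complex III had a median estimate of -0.01 before SDS and -0.02 after SDS over its 7 genes. Uqcrh, the hinge protein that docks cytochrome c1, varied most between arrays, with ratios of -0.66, 0.54 and 0.66 before SDS and -0.40, -0.21, 0.23 and 0.21 after SDS, so that array 1 opposed arrays 2 and 3 before SDS. The core subunit Uqcrc1 had 0.24, -0.08, -0.01 and -0.09 after SDS and the Rieske iron-sulfur protein Uqcrfs1 had -0.24, -0.12, 0.23 and -0.16. Their estimates were 0.01 (SE 0.08) and -0.07 (SE 0.08), the highest and the lowest of the complex after SDS. The second core subunit, Uqcrc2, had ratios of -0.07, 0.07 and 0.38 before SDS and 0.03, -0.14, 0.11 and -0.04 after SDS. Of the small subunits, Uqcrq had -0.12, 0.13 and -0.43 before SDS, and Uqcr11 had 0.11, -0.17 and -0.28. These signs differed between arrays in each case.

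In complex V the median estimate was -0.03 before SDS and 0.02 after SDS. Above 0 were 6 and 10 of 16 genes (37.5% and 62.5%), against 48.7% and 49.7% of all genes. Atp5e, the epsilon subunit of the central stalk, had the lowest p of all members for diet. Its log2 ratios were -0.29, 0.15 and -0.09 on arrays 1 to 3 before SDS and -0.45, -0.41, -0.50 and -0.04 on arrays 1 to 4 after SDS. All 4 ratios after SDS were below 0, that of array 4 only slightly. The estimate of -0.35 (SE 0.09) had an unadjusted p of 0.00692 and an adjusted p of 0.835 in limma. It was -0.24 without array 3 after SDS and 0.06 with the muscle and fat ratios as covariates, a fit with the limit given above. Atp5d, the delta subunit beside it in the stalk, was the 1 member with no ratio below 0 after SDS, at 0.14, 0.09, 0.06 and 0, and an estimate of 0.07 (SE 0.06). The catalytic head gave 0.51, -0.18, -0.06 and -0.16 for Atp5a1 and 0.07, -0.20, 0.27 and 0.09 for Atp5b after SDS, with estimates of 0.03 and 0.06. Among the small membrane subunits, Atp5k had -0.11, 0.05 and -0.47 before SDS and -0.15, 0.15, -0.07 and -0.12 after SDS, and Atp5l had -0.29, 0.22 and -0.12 before SDS and -0.17, 0.16, -0.05 and 0.20 after SDS. The signs of both changed between arrays.

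The comparison of skin after SDS with skin before SDS, which also carries the slide, moved single subunits in both directions. In control-fed mice 7 of the 64 genes rose and 4 fell, and in GC-fed mice 6 rose and 7 fell (limma separate-channel fit, adjusted p under 0.05 over 17079 genes). Of all genes, 15.1% passed in control-fed mice (6.69% higher, 8.43% lower) and 13.6% in GC-fed mice (6.14% higher, 7.45% lower), so the members' 11 and 13 of 64 were near the background. The median log2 difference over the members was 0.05 in control-fed mice and 0.03 in GC-fed mice, beside -0.001 and -0.002 over all genes. In each diet 39 of 64 (60.9%) were above 0, against 49.7% of all genes. At an unadjusted p under 0.05 there were 24 members in control-fed mice, against 32.6% of all genes, and 18 in GC-fed mice, against 30.2%. In both diets 5 genes rose (Ndufa9, Ndufb10, Ndufs5, Ndufv2, Atp5g3) and 4 fell (Ndufa6, Ndufs1, Atp5d, Atp5g2), 9 in all, where 8.68% of all genes passed in both in the same direction. The comparisons share arrays but no sample. Groups did not overlap for 22 of 64 members in control-fed mice, where the background was 30.8%, and for 16 in GC-fed mice, where it was 23.4%.

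These counts changed with single arrays and with the processing. The share of all genes called in each alternative is not given here. Whether a lower count is particular to the members therefore cannot be told. Without array 1 before SDS, 1 member passed in control-fed mice, namely Ndufa6; in GC-fed mice the count was 7 without array 2 before SDS, 6 without array 3 before SDS and 8 without array 3 after SDS. With median centring in place of loess 7 members passed in each diet, and with the scanner software's own processed signal 2 passed in GC-fed mice. With the muscle and fat index of each sample as covariates, Ndufa6, Ndufa9 and Ndufv2 passed in control-fed mice, and Ndufa6, Ndufa9, Ndufs1 and Ndufs5 in GC-fed mice.

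**Figure D2:**
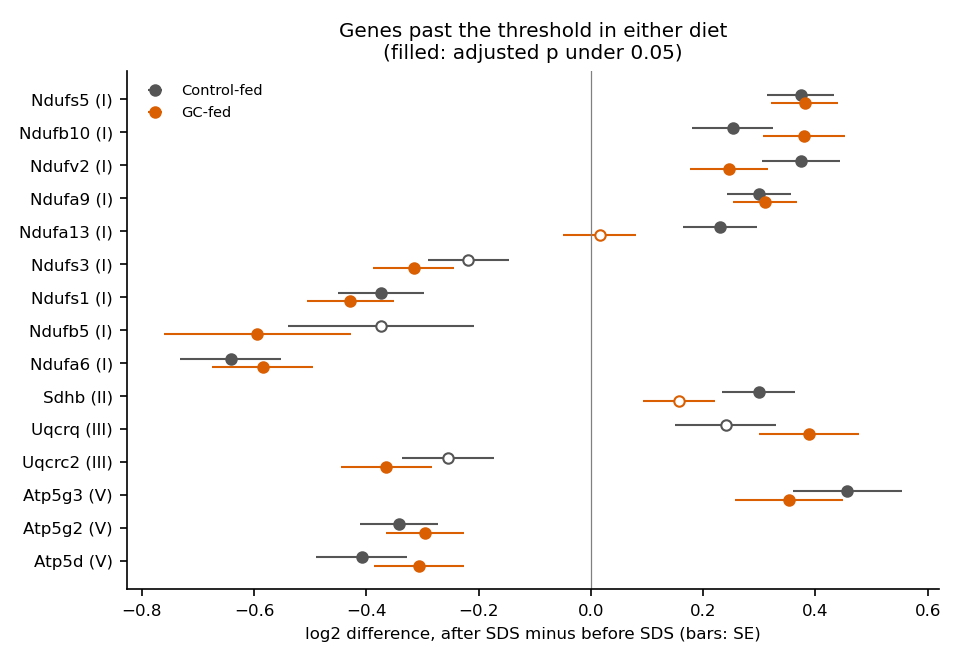
Estimated log2 difference, after SDS minus before SDS, with its standard error, for the 15 genes that passed in control-fed or GC-fed mice; filled points passed at an adjusted p under 0.05. Estimates of one gene lie on the same side of 0 in both diets, and Ndufa6 is the lowest in control-fed mice at -0.64.

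Complex I held 5 genes that rose and 2 that fell in control-fed mice, and 4 and 4 in GC-fed mice. Ndufa6, an accessory subunit of the matrix arm, had the largest fall among the control-fed calls. Its log2 levels in control-fed mice were 13.24, 12.8 and 12.83 before SDS and 12.49, 12.28, 12.33 and 12.27 after SDS. In GC-fed mice they were 12.86, 13.07 and 12.83 before SDS and 12.25, 12.3, 12.39 and 12.31 after SDS. Every sample after SDS was below every sample before SDS in both diets. The estimates were -0.64 (SE 0.09) with an adjusted p of 0.00263 and -0.58 (SE 0.09) with an adjusted p of 0.00448 in limma. Ndufa6 was the 1 member whose call held in both diets under all 16 alternatives tried for each.

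Ndufs1, the largest iron-sulfur subunit of the NADH-oxidising module, had levels of 13.12, 13.05 and 12.95 before SDS and 12.72, 12.61, 12.69 and 12.65 after SDS in control-fed mice. In GC-fed mice it had 13.12, 13.09 and 13.18 before SDS and 12.87, 12.61, 12.73 and 12.6 after SDS. The groups did not overlap in either diet, and the estimates were -0.37 (SE 0.08) and -0.43 (SE 0.08). Its partner in the same module, Ndufv2, moved the other way. Ndufv2 had 12.6, 12.42 and 12.24 before SDS and 12.96, 12.86, 12.77 and 12.73 after SDS in control-fed mice and 12.36, 12.56 and 12.6 before SDS and 12.53, 12.68, 12.9 and 12.75 after SDS in GC-fed mice, with estimates of 0.37 (SE 0.07) and 0.25 (SE 0.07). The GC-fed groups of Ndufv2 overlapped, and its GC-fed call held in 4 of 16 alternatives. Ndufv1, the third core subunit of this module, passed in neither diet, with estimates of -0.16 (SE 0.07) and -0.11 (SE 0.07), and Ndufs4 had 0.08 (SE 0.08) and -0.01 (SE 0.08).

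Ndufs5 rose in both diets. Its levels were 15.48, 15.48 and 15.52 before SDS and 15.86, 15.8, 15.88 and 15.91 after SDS in control-fed mice and 15.38, 15.37 and 15.29 before SDS and 15.65, 15.73, 15.73 and 15.81 after SDS in GC-fed mice. The groups were clear of each other in both diets, and the estimates were 0.37 (SE 0.06) and 0.38 (SE 0.06) with adjusted p of 0.00334 and 0.00462 in limma. Ndufa9, at the junction of the matrix and membrane arms, had 13.72, 13.65 and 13.66 before SDS and 14.11, 14.05, 13.89 and 13.96 after SDS in control-fed mice and 13.64, 13.78 and 13.78 before SDS and 14, 13.88, 14.13 and 14.06 after SDS in GC-fed mice. It too showed no overlap, with estimates of 0.30 (SE 0.06) and 0.31 (SE 0.06). Ndufb10, of the distal membrane arm, rose by 0.25 and 0.38 on the log2 scale, calls that held in 6 and 13 of 16 alternatives. Ndufa13 rose by 0.23 in control-fed mice, with 0.02 (SE 0.07) in GC-fed mice; the difference between the diets is the test of the diet effect between times, which it did not pass. The control-fed call of Ndufa13 held in 7 of 16 alternatives. In GC-fed mice alone Ndufb5, of the membrane arm, and Ndufs3, of the ubiquinone module, passed, at -0.59 (SE 0.17) and -0.32 (SE 0.07), against -0.37 and -0.22 in control-fed mice; these calls held in 6 and 12 of 16 alternatives.

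In complex II, Sdhb rose in control-fed mice. Its levels were 12.14, 12.07 and 12.04 before SDS and 12.51, 12.43, 12.36 and 12.28 after SDS in control-fed mice and 12.11, 12.04 and 12.09 before SDS and 12.22, 12.17, 12.18 and 12.34 after SDS in GC-fed mice. The after-SDS samples were all higher in both diets, and the estimates were 0.30 (SE 0.06) with an adjusted p of 0.0109 and 0.16 (SE 0.06) with an adjusted p of 0.122 in limma. Sdha, Sdhc and Sdhd passed in neither diet, with estimates of 0.12, 0.05 and 0.21 in control-fed mice and -0.19, -0.12 and 0.05 in GC-fed mice.

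In complex III, 0 of 7 genes passed in control-fed mice, where 2 had an unadjusted p under 0.05, and 2 passed in GC-fed mice. Uqcrc2, a core subunit, had GC-fed levels of 13.51, 13.44 and 13.78 before SDS and 13.18, 13.15, 13.3 and 13.16 after SDS, a fall with an estimate of -0.36 (SE 0.08). Uqcrq, a small subunit, had 15.63, 15.76 and 15.39 before SDS and 15.86, 15.91, 16.01 and 16.08 after SDS, a rise of 0.39 (SE 0.09) whose call held in 8 of 16 alternatives. Neither pair of groups overlapped. In control-fed mice the estimates of the same genes were -0.26 and 0.24. Uqcrc1 and Uqcrfs1 had 0.13 (SE 0.07) and 0.17 (SE 0.09) in control-fed mice and 0.13 (SE 0.07) and 0.11 (SE 0.09) in GC-fed mice.

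In complex V, the 3 genes that passed in control-fed mice were the same 3 that passed in GC-fed mice: Atp5g3 rose, and Atp5d and Atp5g2 fell. Atp5d had levels of 12.75, 12.72 and 12.72 before SDS and 12.39, 12.15, 12.31 and 12.4 after SDS in control-fed mice and 12.77, 12.68 and 12.59 before SDS and 12.52, 12.24, 12.37 and 12.4 after SDS in GC-fed mice. No after-SDS sample reached the before-SDS samples, and the estimates were -0.41 (SE 0.08) and -0.31 (SE 0.08), with calls that held in 14 and 9 of 16 alternatives. The catalytic subunits Atp5a1 and Atp5b passed in neither diet, with -0.07 (SE 0.14) and 0.08 (SE 0.08) in control-fed mice and -0.16 (SE 0.14) and 0.10 (SE 0.08) in GC-fed mice. Atp5e had 0.32 (SE 0.11) in control-fed mice, where its adjusted p was 0.0707, and 0.08 (SE 0.11) in GC-fed mice.

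Atp5g1, Atp5g2 and Atp5g3 are separate genes that code for the same mature c subunit, the protein of the ATP synthase rotor ring, and they went different ways. Atp5g2 had levels of 14.21, 14.28 and 14.19 before SDS and 13.89, 13.72, 13.95 and 13.91 after SDS in control-fed mice and 14.31, 14.22 and 14.06 before SDS and 13.99, 13.95, 13.95 and 13.78 after SDS in GC-fed mice. Atp5g3 had 15.38, 15.23 and 15.18 before SDS and 15.81, 16.03, 15.58 and 15.59 after SDS in control-fed mice and 15.23, 15.52 and 15.48 before SDS and 15.87, 15.53, 15.85 and 15.66 after SDS in GC-fed mice. The samples before and after SDS did not overlap for either gene in either diet, lower after SDS for Atp5g2 and higher for Atp5g3. For Atp5g3 in GC-fed mice they nearly touched, at 15.52 before and 15.53 after SDS. The estimates of Atp5g2 were -0.34 (SE 0.07) and -0.30 (SE 0.07), with adjusted p of 0.00887 and 0.0186 in limma. Those of Atp5g3 were 0.46 (SE 0.10) and 0.35 (SE 0.10), with adjusted p of 0.0104 and 0.0325. Atp5g1 overlapped between all groups, with 13.55, 13.74 and 13.42 before SDS and 13.51, 13.6, 13.42 and 13.67 after SDS in control-fed mice and estimates of -0.009 (SE 0.09) and -0.06 (SE 0.09). The GC-fed call of Atp5g3 held in 4 of 16 alternatives, and that of Atp5g2 in 11.

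**Figure D3:**
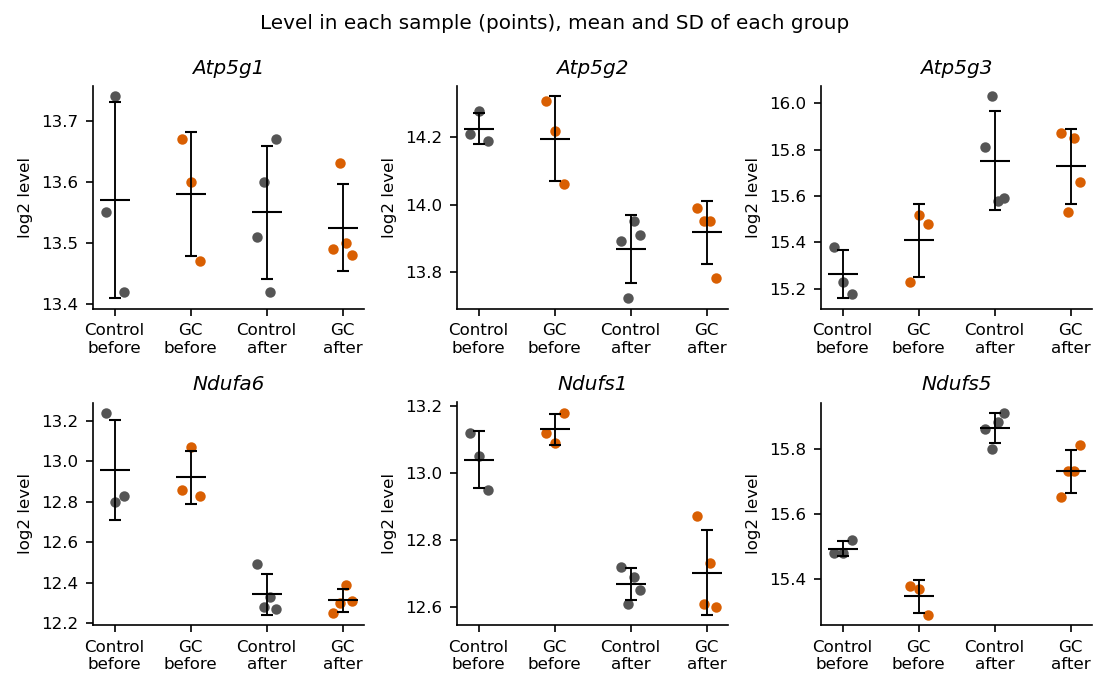
Log2 level in each sample of the c-subunit genes Atp5g1, Atp5g2 and Atp5g3 and of Ndufa6, Ndufs1 and Ndufs5 in the 4 diet by SDS groups (3 samples before and 4 after SDS); bars give the mean and SD. Levels after SDS do not overlap those before SDS in either diet for all but Atp5g1, though for Atp5g3 in GC-fed mice they nearly touch.

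The c-subunit genes also differ in the sequence before their start sites, which is shown because the same protein's genes moved apart, with Ndufa6 and Sdhd for comparison. Each line is the 150 bases before the annotated start (RefSeq, build GRCm38.p6), read 5′ to 3′ on the minus strand, where all 5 genes lie: chr11:96075632-96075781, chr15:102671048-102671197, chr2:73911327-73911476, chr15:82354292-82354441 and chr9:50603850-50603999. Capitals mark a match on either strand to one of 4 motifs of factors known to drive respiratory genes: GCGCATGCG (NRF1), CCGGAAG (GABP), AAGATGGCG (YY1) and TCAAGGTCA (ERR).
Atp5g1: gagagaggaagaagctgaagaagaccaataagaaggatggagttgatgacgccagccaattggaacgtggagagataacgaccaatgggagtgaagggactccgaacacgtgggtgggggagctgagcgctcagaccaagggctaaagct
Atp5g2: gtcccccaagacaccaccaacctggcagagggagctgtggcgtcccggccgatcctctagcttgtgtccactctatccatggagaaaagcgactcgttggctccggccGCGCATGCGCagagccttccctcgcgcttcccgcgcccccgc
Atp5g3: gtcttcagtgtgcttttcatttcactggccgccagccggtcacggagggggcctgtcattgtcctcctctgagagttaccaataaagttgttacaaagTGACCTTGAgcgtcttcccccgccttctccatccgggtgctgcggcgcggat
Ndufa6: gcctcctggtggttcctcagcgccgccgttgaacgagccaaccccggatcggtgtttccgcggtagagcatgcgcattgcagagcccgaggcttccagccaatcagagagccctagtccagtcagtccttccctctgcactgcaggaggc
Sdhd: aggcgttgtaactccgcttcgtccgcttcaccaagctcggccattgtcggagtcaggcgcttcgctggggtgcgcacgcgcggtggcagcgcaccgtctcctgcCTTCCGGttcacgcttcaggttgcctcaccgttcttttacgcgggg
The Atp5g2 stretch holds the NRF1 letters, that of Atp5g3 the ERR letters on the opposite strand, and that of Sdhd the GABP letters on the opposite strand; Atp5g1 and Ndufa6 hold none of the 4. Windows were found for 55 of the 64 members, and Ndufs1, Sdhc, Uqcrc2, Uqcrq and Atp5a1 were among those with no entry. In the 250 bases before the start, the NRF1 letters were in 5 of 55 members (9.1%) and 1.49% of 27025 genes, and the GABP letters in 10 of 55 (18.2%) and 7.05% of genes. The YY1 letters were in 0 of 55 members and 0.607% of genes, and the ERR letters in 1 of 55 (1.8%) and 0.366% of genes. In Atp5g2 the NRF1 letters match on both strands at overlapping places, which gives a run of 10 capitals and counts as 1 gene. A match describes the sequence only.

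Whether the respiratory genes follow muscle or fat content was asked with an index of each, the median centred log2 level of the marker genes in each sample. After SDS the muscle index was 0.17 to 0.49 in control-fed mice and -0.61 to -0.02 in GC-fed mice, and the fat index 0.14 to 0.46 and -0.25 to -0.08, so the diets did not overlap. Before SDS the muscle index was -0.09 to 0.22 in control-fed mice and -0.22 to 0.2 in GC-fed mice. Over the 14 samples the muscle index spanned 1.10 and the fat index 0.72 log2 units, and the median centred level of the 64 members spanned 0.20. After SDS that median was 0.10, 0.03, 0.02 and 0.01 in control-fed replicates 1 to 4 and -0.06, 0.003, 0.01 and -0.02 in GC-fed replicates 1 to 4. The replicate with the lowest muscle index, GC-fed 1, also had the lowest member median after SDS, while GC-fed 3, with nearly the same muscle index, did not.

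Within the diet by SDS groups, 0 of 64 members had a slope on the muscle index that passed (limma, adjusted p under 0.05), where 0.082% of all genes, 14 genes, did, all with positive slopes; 7 of the 14 are muscle markers that form the index itself. At an unadjusted p under 0.05 there were 2 members, both in complex II, against 6.77% of all genes. The median slope over the members was -0.02 log2 units per unit of the index, beside 0.01 over all genes and 1.06 over the muscle genes that make up the index, which is a property of how the index was built. Medians by complex were -0.06 for complex I, 0.35 for complex II, 0.01 for complex III and -0.04 for complex V. Of the 37 muscle genes 32 had slopes above 0, such as Myl1 at 1.54, while Mb had 0.15. Below 0 were Tnni1 (-0.42), Myh7 (-0.35), Sln (-0.31), Tnnt1 (-0.18) and Tnnc1 (-0.05). A slope near 0 therefore speaks only of the muscle genes that the index follows. Whether the members follow the other muscle genes was not tested. The slopes of complex II were 0.47 (SE 0.16) for Sdha, 0.02 (SE 0.13) for Sdhb, 0.44 (SE 0.12) for Sdhc and 0.27 (SE 0.12) for Sdhd. Sdhc had an unadjusted p of 0.00406 and an adjusted p of 0.474, and Sdha had 0.0143 and 0.638. Without array 3 after SDS the slope of Sdha was 0.17 and that of Sdhc 0.38; without array 2 after SDS they were 0.76 and 0.66.

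The log2 levels of Sdha after SDS were 10.84, 10.94, 10.99 and 10.79 in control-fed mice and 10.71, 10.71, 10.41 and 10.8 in GC-fed mice. Those of Sdhc were 11.29, 11.34, 11.6 and 11.55 in control-fed mice and 11.24, 11.42, 11.08 and 11.4 in GC-fed mice. Those of Sdhd were 13.22, 13.22, 13.5 and 13.37 in control-fed mice and 13.12, 13.23, 12.98 and 13.26 in GC-fed mice. GC-fed replicate 3 was the lowest sample for all 3 genes, and control-fed replicate 3, with the highest muscle index, was the highest for Sdhc and Sdhd of all 14 samples. Other members with a slope named by its p included Uqcrh at 0.30 (SE 0.16) on the high side. In complex V Atp5e had the smallest p among the positive slopes, which reached 0.36. On the low side were Atp5g3 at -0.34 (SE 0.16) and Ndufs8, an iron-sulfur subunit of complex I, at -0.32 (SE 0.20). None of these passed.

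**Figure D4:**
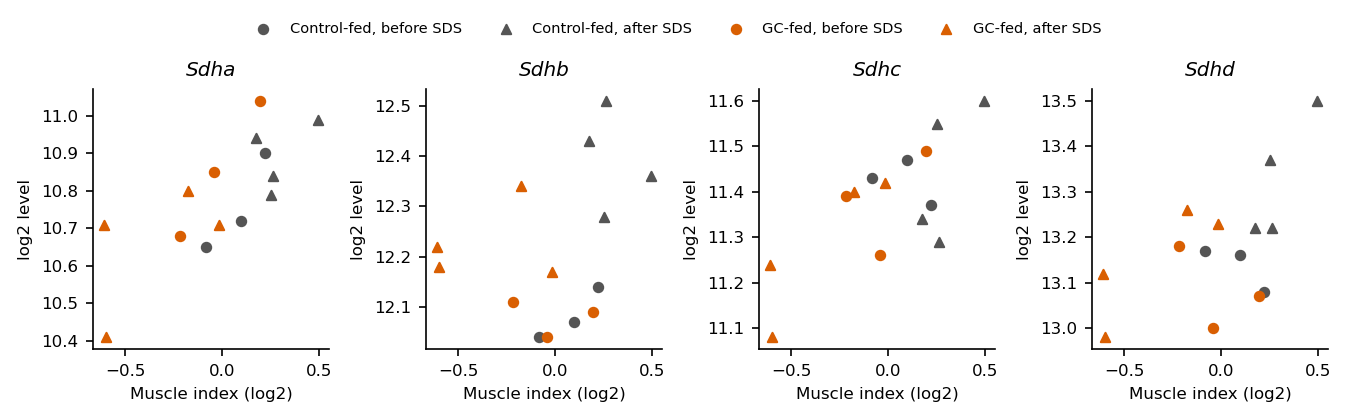
Log2 level of Sdha, Sdhb, Sdhc and Sdhd in each of the 14 samples against the sample's muscle index (log2). The GC-fed sample after SDS with Sdha at 10.41 has a muscle index of -0.60, and the control-fed sample with the highest index, 0.49, has Sdhd at 13.5.

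On the fat index 0 of 64 members passed, and 0% of all genes did; 2 members had an unadjusted p under 0.05, against 13.5% of all genes. They were Atp5e, with a slope of 0.92 (SE 0.38), and Ndufa7, an accessory subunit of complex I, with 0.83 (SE 0.34). The median slope over the members was 0.06, beside 0.01 over all genes and 1.06 over the fat-cell genes. Without array 3 after SDS the median over the members was 0.53, beside -0.018 over all genes, so it depended on that array. Complex medians were 0.11, 0.47, -0.15 and 0.01 for complexes I, II, III and V. Atp5e levels after SDS were 15.74, 16.06, 16.04 and 15.76 in control-fed mice and 15.29, 15.65, 15.54 and 15.72 in GC-fed mice, so every control-fed sample was above every GC-fed one. Ndufa7 had 14.45, 14.31, 14.62 and 14.22 in control-fed mice and 14.35, 14.5, 14.19 and 14.16 in GC-fed mice, with overlap.

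**Figure D5:**
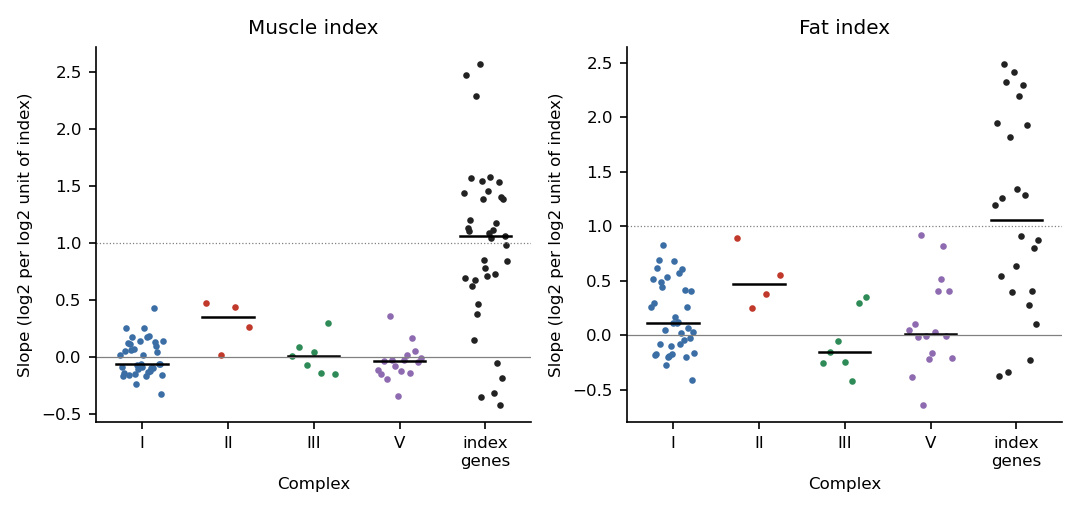
Slope of each gene's log2 level on the muscle index (left) and fat index (right) within the diet by SDS groups, by complex, beside the genes that form the index; lines mark medians and the dotted line a slope of 1. Complexes I, III and V centre near 0 on the muscle index, complex II at 0.35 and the muscle genes at 1.06.

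Genes that work beside these complexes were read from lists, and 0 of them passed for diet at either time by limma. Their counts for SDS stand beside 15.1% of all genes called in control-fed mice and 13.6% in GC-fed mice. In complex IV, cytochrome oxidase, 15 of 16 nuclear subunit genes were measured; 1 rose and 1 fell in control-fed mice, and 1 rose and 2 fell in GC-fed mice. Cox5a rose by 0.33 and 0.42 on the log2 scale in the 2 diets. Cyc1, the cytochrome of complex III whose name the rule does not take, fell by 0.34 and 0.31. Of 17 citric acid cycle genes 2 rose and 4 fell in control-fed mice, and 0 rose and 7 fell in GC-fed mice, among them Pdhb, a pyruvate dehydrogenase subunit, which fell by 0.45 and 0.50. Of 18 fatty acid oxidation genes 1 rose and 5 fell in control-fed mice and 1 rose and 3 fell in GC-fed mice. Of 13 measured regulators of mitochondrial genes, Tfam, which drives transcription of mitochondrial DNA, was the 1 that passed, and it fell by 1.25 and 1.07. Of 26 measured assembly factors 4 rose and 1 fell in each diet, and Atpaf1, an assembly factor of complex V, rose by 0.59 and 0.42. On the muscle index, Slc25a4, the ADP/ATP carrier typical of heart and muscle, had a slope of 1.2 (SE 0.14) with an adjusted p of 0.00777 in limma. Of 17 measured glycolysis genes 2 also passed on that index. They were Pgam2 at 1.40 (SE 0.16) and Eno3 at 1.35 (SE 0.20), with adjusted p of 0.00777 and 0.0341 in limma.

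Some markers of other cell types also passed for SDS, beside 15.1% of all genes in control-fed mice and 13.6% in GC-fed mice. Of 37 muscle genes, 2 rose and 4 fell in control-fed mice, and 0 rose and 8 fell in GC-fed mice. Of 24 fat-cell genes, 7 rose and 1 fell in control-fed mice, and 0 rose and 4 fell in GC-fed mice. Of 13 measured hair follicle genes, 5 rose after SDS in control-fed mice and 9 in GC-fed mice, with 0 that fell, and the median of their centred levels ran from -1.56 to 0.32 before and -0.03 to 0.95 after SDS in control-fed mice and from -1.52 to -0.33 and 0.29 to 1 in GC-fed mice. Of 10 basal keratinocyte genes, 5 fell in control-fed mice and 2 in GC-fed mice, with medians of 0.05 to 0.21 before and -0.38 to -0.09 after SDS in control-fed mice and 0.18 to 0.26 and -0.36 to 0.14 in GC-fed mice. Of 13 measured suprabasal keratinocyte genes, 1 fell in control-fed mice and 0 passed in GC-fed mice. Among 9 fibroblast genes 0 passed in either diet. The part of hair follicle and keratinocyte content in the SDS differences of the respiratory genes was not tested.

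Several members had probes that did not move together. Of the 19 genes with more than 1 probe past the filter, 10 in control-fed mice and 6 in GC-fed mice had probes of opposite sign for SDS. The 3 probes of Atp5b gave 0.09, -0.28 and -0.47 in control-fed mice as differences of group means, from the brightest to the dimmest, and those of Uqcrc1 gave 0.13 and -0.32. The brightest probe was used for each gene. For Sdha the 2 probes had nearly the same mean level, 10.79. The probe used gave 0.14 for SDS in control-fed mice and -0.20 in GC-fed mice, and the other gave -0.10 and -0.31. Their mean diet ratios after SDS were -0.23 for the probe used and -0.16 for the other. Both probes of Atp5g2 were lower after SDS in both diets, at -0.35 and -0.38 in control-fed mice and -0.27 and -0.35 in GC-fed mice.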

How the data were processed

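Each of 7 two-colour arrays compared skin of GC-fed with control-fed mice, 3 before and 4 after SDS. The deposited scanner files give the intensity of every spot in green and in red, read with Feature Extraction 9.1.3.1 per the file headers, and the deposited gene table holds log2 ratios, whose making is not given in the sources used here. That table correlated with the ratios computed here at r = 0.866 to 0.965 and served as an alternative.

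Mean intensities were background-corrected (normexp, offset 50) and loess-normalised within arrays in limma 3.58.1 (R 4.3.3), with control spots at weight 0 and flagged spots left out; levels were then Aquantile-normalised. Probes stayed in if 3 or more of the 14 channels were well above background, and each gene was read from its brightest probe. Symbols were updated through RefSeq (GRCm38.p6) for 22951 probes by accession, 6659 by symbol and 3109 by synonym; 8455 kept the file's name.

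Diet was tested on log2 ratios with a dye term over all arrays (4 residual degrees of freedom). SDS effects and slopes were tested on levels in the separate-channel fit with diet by SDS group and dye (9 and 8 residual degrees of freedom). Benjamini-Hochberg adjustment ran over all genes, with a threshold of 0.05. Fits were tested on simulated data.

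Members and lists were chosen with earlier results of these data known. Any member could be named; full values were set out for a set (the 4 Sdh genes, Ndufs1, Ndufv1, Ndufs4, Uqcrfs1, Uqcrc1, Atp5a1, Atp5b and the 3 Atp5g genes) and, in each complex and comparison, the 2 members with the smallest p in each direction, and the text gives them for those its results turn on; 1 member's own values are not reported here. Alternatives changed background correction, normalisation, filter, probe choice, dye term, replicate block, covariates and arrays. The number of arrays limits the precision.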

Additional observations from a re-analysis of the deposited data

Results flagged for a closer look

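In groups of 4 samples, the gap of a value to the nearest other value was divided by the range of the group. A value was set apart where the result was above Dixon's 95% critical value. Chance does this in about 1 in 20 groups. On rounded values 5 of 211 groups looked at did so, and those of Uqcrb and Atp5g1 did so only because of the rounding. The Ndufa6 diet ratio on array 1 after SDS was -0.233, with the nearest at 0.019. The Ndufb9 level in control-fed replicate 1 after SDS was 15.17, with the nearest at 15.31, and that of Uqcrb in control-fed replicate 2 after SDS was 12.55, with the nearest at 12.72. The Atp5g1 level in GC-fed replicate 2 after SDS was 13.63, with the nearest at 13.5. On unrounded levels the gap over the range was 0.817 for Uqcrb and 0.815 for Atp5g1, below the critical value, so neither is set apart without rounding. The median diet ratio of complex II on array 3 after SDS was -0.52, with the nearest at -0.119.

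Ndufa13 was higher in GC-fed skin on all 3 arrays before SDS and lower on all 4 after SDS, with mean log2 ratios of 0.063 and -0.174. The fitted difference was -0.21 (SE 0.10), with an adjusted p of 0.9998 in limma, so it did not pass.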

How the results depend on the processing

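For diet, 0 members passed in every alternative run, among them the deposited ratios, the sign of array 4 after SDS turned and each array left out. The median over members for diet after SDS was -0.114 with median centring in place of loess. For SDS in control-fed mice, 7 members passed with median centring and 3 with the muscle and fat indices as covariates. In GC-fed mice, 2 passed with the scanner software's processed signal, 7 with median centring and 4 with the indices as covariates. With single arrays left out, the counts were 1 to 12 in control-fed mice and 6 to 12 in GC-fed mice, and the median fat slope -0.023 to 0.533. All these counts stand without the share of all genes called in the same alternative. Direction held for all genes called in either diet in all alternatives run. A gene's call held in 6 to 16 of 16 alternatives in control-fed mice and in 4 to 16 of 16 in GC-fed mice. With the replicate number as a block, 9 members passed in control-fed mice and 8 in GC-fed mice; the within-spot correlation was then taken from the fit without the block. Deviations of same-numbered arrays correlated at -0.086, -0.045 and 0.186, so the numbers were not read as a pairing. Under median centring the all-gene median of the fat slope was 0.155, against 0.012 with loess.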

Other observations

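Under older names in the files, 10 further genes of these complexes fall outside the name rule: Atp5md, Atp5mpl, Ndufaf2 to Ndufaf7, Ndufv3 and Uqcr10. For diet, 0 of them passed at either time by limma. Ndufaf2, an assembly factor of complex I, rose after SDS in both diets, by 0.41 (SE 0.09) on the log2 scale in control-fed mice with an adjusted p of 0.0126 and by 0.36 (SE 0.09) in GC-fed mice with an adjusted p of 0.0227. The other 9 passed in neither diet. A further probe of Sdha under a clone name was not used.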
